A study of Mus musculus with 7 samples.

Results

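The gene segments of the immunoglobulin light chains, together with the joining chain gene Jchain, were examined in 2 fat depots of mice on Affymetrix expression arrays. A probe belonged to the set if the platform annotation gave it exactly 1 gene symbol and that symbol started with Igkv, Igkj, Igkc, Iglv, Iglj or Iglc, or was Igj, the older name of Jchain. Probes with identical values on all arrays count as 1 signal, and no 2 members were identical. The rule found 81 signals among 9109 distinct signals with 1 symbol. They were 79 kappa variable segments (Igkv), the joining segment Igkj3 and Jchain. No signal with a single symbol was named Igkc, Iglv, Iglj or Iglc, so the kappa constant exon and the lambda locus have no value among the members.

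There were 4 arrays of paracardial fat (pCF), which lies next to the heart, and 3 arrays of intra-abdominal fat (iVF). Per the labels, both depots came from wild-type male C57 mice, with no age or treatment given. The labels call the arrays of a depot biological replicates but tie none of them to an animal, so a p-value here covers the variation among these arrays, which may be partly technical. Each value is a log2 expression value as the authors deposited it, and each difference is pCF minus iVF on that scale.

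An antibody light chain is encoded by a variable (V) segment joined to a joining (J) segment and spliced to a constant exon, and in mice most light chains are of the kappa type. A B cell normally uses a single joined light chain gene, so the level of a V segment in tissue sums over the B cells and plasma cells that use it. Jchain encodes the small protein that links IgM and IgA into polymers and is made mainly by antibody-secreting cells. Fat around the heart and in the abdomen can hold small lymphoid clusters with B cells. In bulk tissue, fewer cells of a type and less RNA per cell cannot be told apart.

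The arrays have limits that touch every value below. The highest value per array was 19.81 to 19.93, a ceiling, and no member was at the ceiling (within 0.1 of an array's highest value) on any array. Array medians lay between 6.005 and 6.37 in pCF and between 5.995 and 6.12 in iVF. The arrays pCF 4 and iVF 3 had a higher ceiling (19.93) and a lower 5th percentile (3.995 and 3.9996) than the other 5 (4.38 to 4.44). Differences on these 2 higher-ceiling arrays and on the 5 lower-ceiling arrays are given where they matter. The 9 measured adipocyte markers had medians of 6.14, 6.26, 9.92 and 9.73 on pCF arrays 1 to 4, against 15.0, 14.9 and 16.4 on iVF arrays 1 to 3. On pCF arrays 1 and 2 the markers of the labelled tissue had medians near that of all probes.

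Of the members, only Jchain had a reference sequence here, and its promoter is shown because it is the regulatory sequence of a gene that marks antibody secretion. The window runs from 250 bases before to 50 bases after the annotated start (RefSeq, GRCm38.p6, minus strand, chr5:88527848-88528147).

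Jchain: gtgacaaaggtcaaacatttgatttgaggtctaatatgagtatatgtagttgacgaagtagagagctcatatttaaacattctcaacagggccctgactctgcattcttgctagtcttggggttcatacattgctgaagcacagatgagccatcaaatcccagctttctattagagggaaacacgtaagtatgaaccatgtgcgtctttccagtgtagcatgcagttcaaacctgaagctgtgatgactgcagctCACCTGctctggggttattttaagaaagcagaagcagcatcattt

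The capitals mark the E-box letters CACCTG, read as CAGGTG on the other strand, which begin at position 6 counted from 1 at the annotated start. These letters, on either strand, occur in 20.2% of the 32851 promoter windows of this length in the table. The octamer ATTTGCAT, read as ATGCAAAT on the other strand and known from immunoglobulin V promoters, is not in this window and occurs in 1.74% of all windows. A match of letters is a description and not a binding site.

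Some kappa light chain signals rose in paracardial fat relative to intra-abdominal fat, while most did not pass the test. Of the 81 members, 18 rose (22.2%), none fell, and 63 did not pass an adjusted p of 0.05, where 6.54% of all 9109 signals were called higher and 3.0% lower (limma, Benjamini-Hochberg over all signals). At an unadjusted p under 0.05, 39 members were higher and 0 lower, against 16.4% and 8.56% of all signals. The 18 were Igkj3 and 17 V segments of 9 families, with differences from 0.97 to 5.56. The difference was positive in 80 of 81 members, with a median of 2.09 over the members and 0.12 over all signals. In 35 members (43.2%) all 4 pCF arrays lay above all 3 iVF arrays, as in 18.3% of all signals, and in 0 members all pCF arrays lay below, against 8.98% of all signals. Leaving out a single array gave 11 calls without pCF 1, 13 without pCF 2, 6 without pCF 3, 12 without pCF 4, 9 without iVF 1, 3 without iVF 2 and 9 without iVF 3. In the same fits and order, 156, 284, 285, 491, 400, 109 and 567 of all 9109 signals were called higher. Without pCF arrays 1 and 2 together no member passed, but only 1 of all 9109 signals did, so this count says little about the members. On the 5 lower-ceiling arrays 7 of the 81 members were called higher, beside 630 of all 9109 signals. Near-identical segments can share probe signal, so the 81 members are not 81 independent measurements.

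**Figure D1:**
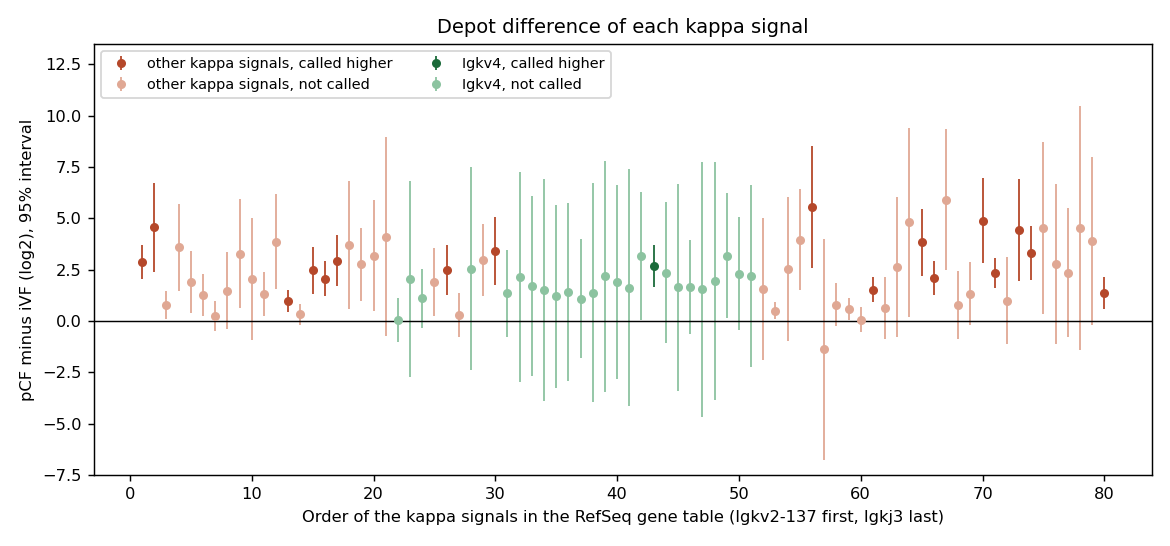
Difference of each of the 80 kappa signals (pCF minus iVF, log2) with its 95% confidence interval from limma, in the order of the RefSeq gene table, with darker points for signals called higher. All but Igkv5-39 lie above 0, and the intervals are wide for most Igkv4 segments.

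Jchain, the gene of the polymer joining chain, had log2 values of 8.78, 8.41, 10.68 and 11.11 on pCF arrays 1 to 4, against 7.52, 7.61 and 6.47 on iVF arrays 1 to 3. All pCF arrays lay above all iVF arrays, with arrays 3 and 4 highest. The means were 9.74 ± 1.35 in pCF (SD, n = 4) and 7.20 ± 0.64 in iVF (SD, n = 3), a difference of 2.54 ± 0.75 (SE; 95% interval 0.76 to 4.33). It did not pass over all signals (limma adjusted p = 0.086). An exact permutation test of the absolute difference over the 35 splits of the arrays gave a two-sided p = 0.0571, where 0.0286 is the smallest possible. Jchain passed the threshold after quantile normalization was applied again (2.16, adjusted p = 0.045) and with array weights (1.39, adjusted p = 0.035). With array weights 3812 of all 9109 signals were called and the estimation stopped before converging, so that pass says little about Jchain. Over all 21 alternatives the adjusted p of Jchain ran from 0.035 to 0.264. The difference was 1.73 on the 5 lower-ceiling arrays and 4.64 on the 2 higher-ceiling arrays.

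Igkj3, a kappa joining segment, had 6.03, 6.98, 7.04 and 6.95 on pCF arrays 1 to 4, against 5.01, 5.67 and 5.46 on iVF arrays 1 to 3. The groups did not overlap, with pCF 1 lowest of its group. Its difference was 1.37 ± 0.32 (SE, limma adjusted p = 0.045), and its exact permutation p was 0.0571, two-sided. With 1 array removed at a time, this call held only without pCF 1, and the other 6 removals gave an adjusted p of 0.084 to 0.115. It also ended, among other settings, on the 5 lower-ceiling arrays (0.127).

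The 4 V segments with the smallest p-values were Igkv2-137, Igkv8-19, Igkv4-58 and Igkv6-13. Igkv2-137 had 7.64, 7.82, 7.12 and 8.64 on the pCF arrays, against 4.99, 4.95 and 4.86 on the iVF arrays. The iVF arrays were within 0.13 of each other and far below every pCF array, and the difference was 2.87 ± 0.36 (SE, adjusted p = 0.010). Igkv8-19 had 7.53, 7.23, 8.29 and 7.15 on the pCF arrays, against 5.27, 5.36 and 4.99 on the iVF arrays, a difference of 2.34 ± 0.31 (adjusted p = 0.011). Of the 18 called members these were the only ones that passed after every single removal of an array. Both calls ended with the replicate number as a block in the fit (adjusted p = 0.051 for Igkv2-137 and 0.065 for Igkv8-19). They also ended without pCF arrays 1 and 2 together (0.099 and 0.097), where only 1 of all 9109 signals passed.

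Igkv4-58 had 7.71, 6.43, 7.14 and 8.15 in pCF, against 5.03, 4.69 and 4.37 in iVF. Its difference of 2.66 ± 0.43 (adjusted p = 0.017) was the only one of its family past the threshold. The call ended without pCF 1 (0.059) or iVF 2 (0.074), with the replicate block (0.056) and without pCF arrays 1 and 2 together (0.091). Igkv6-13 had 7.44, 8.10, 9.19 and 8.68 in pCF, against 6.04, 4.57 and 4.50 in iVF. Its difference was 3.32 ± 0.55 (adjusted p = 0.018), and the call ended without iVF 2 (0.079) and on the 5 lower-ceiling arrays (0.080). It also ended with the replicate block (0.124) and without pCF arrays 1 and 2 together (0.092).

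**Figure D2:**
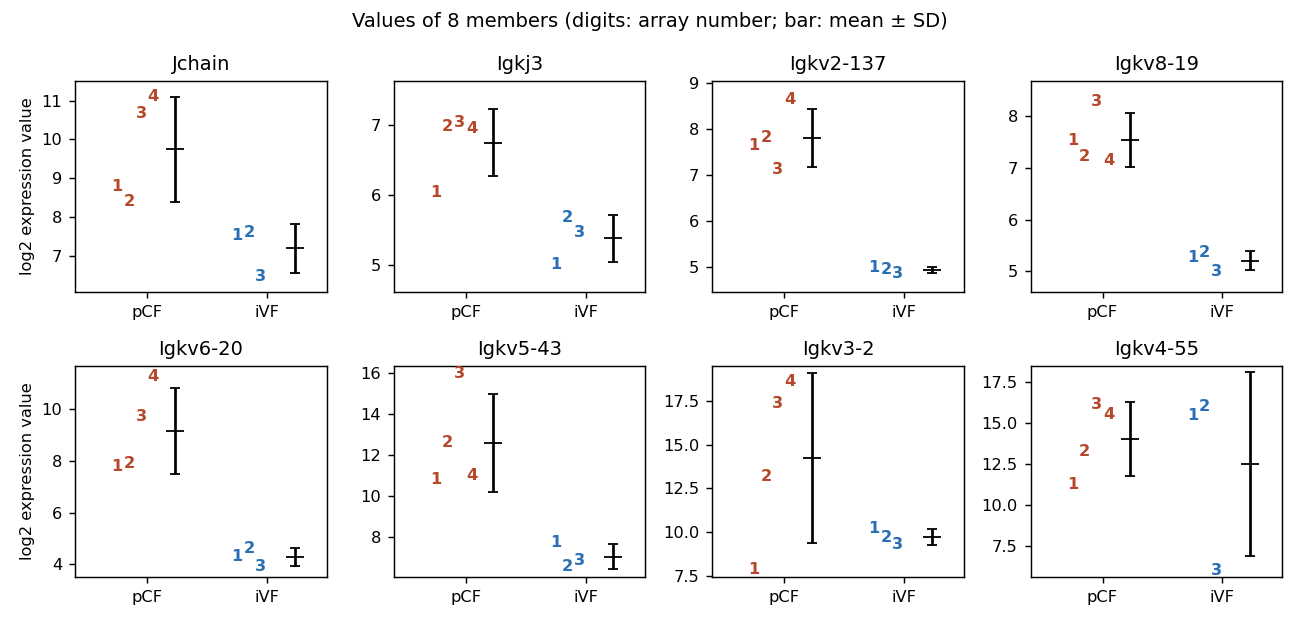
log2 values of 8 members in paracardial fat (pCF, left) and intra-abdominal fat (iVF, right), each digit being the array of that number, with the mean and SD of each depot as a bar. The groups do not overlap in the first 6 panels, while Igkv3-2 spreads over 10.8 among the pCF arrays and Igkv4-55 over 9.99 among the iVF arrays.

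Among the V segments with the largest differences the pCF arrays varied widely. Igkv6-25 had 9.03, 13.37, 15.06 and 10.86 in pCF, against 7.08, 6.47 and 4.98 in iVF. The groups did not overlap, and the difference of 5.90 ± 1.44 did not pass (adjusted p = 0.051). It passed under 8 of 21 alternatives, and over all 21 its adjusted p ran from 0.024 to 0.165. Igkv5-43 had 10.80, 12.61, 15.95 and 10.97 in pCF, against 7.69, 6.55 and 6.83 in iVF, a difference of 5.56 ± 1.25 (adjusted p = 0.041). In both segments pCF 3 was the highest array. With 1 array removed at a time, the call of Igkv5-43 held only without pCF 3 and was weakest without iVF 2 (adjusted p = 0.147). It also ended, among other settings, on the 5 lower-ceiling arrays (0.101), with cyclic loess (0.0523) and with the replicate block (0.111).

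Igkv6-20 had 7.78, 7.89, 9.70 and 11.28 in pCF, against 4.30, 4.602 and 3.91 in iVF, a difference of 4.89 ± 0.87 (adjusted p = 0.021). Here pCF 4 was highest, and the depots did not overlap. Igkv1-135 had 11.36, 9.95, 11.46 and 13.63 in pCF, against 8.27, 6.26 and 6.59 in iVF (4.56 ± 0.91, adjusted p = 0.028). Igkv6-14 had 7.24, 9.41, 10.48 and 11.96 in pCF, against 5.59, 5.64 and 4.799 in iVF (4.43 ± 1.04, adjusted p = 0.046). These 3 calls held after 3, 3 and 1 of the 7 single removals of an array, and without iVF 2 the adjusted p was 0.079 for Igkv6-20, 0.117 for Igkv1-135 and 0.139 for Igkv6-14. The call of Igkv6-20 also ended without pCF 3 (0.059), iVF 1 (0.052) or iVF 3 (0.052), that of Igkv1-135 without pCF 1 (0.076), pCF 3 (0.069) or iVF 3 (0.072), and that of Igkv6-14 after every removal but that of pCF 1. On the 5 lower-ceiling arrays the calls of Igkv1-135 (0.067) and Igkv6-14 (0.118) ended. With the replicate block all 3 calls ended (0.067 for Igkv6-20, 0.054 for Igkv1-135 and 0.130 for Igkv6-14).

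Several segments were far higher on 1 or 2 pCF arrays than on the others. Igkv3-2 had 7.83, 13.18, 17.36 and 18.66 in pCF, against 10.23, 9.66 and 9.31 in iVF, so that pCF 1 lay below all iVF arrays (4.53 ± 2.50, adjusted p = 0.329). Igkv19-93 had 11.01, 8.29, 10.11 and 17.18 in pCF, against 7.86, 8.56 and 6.25 in iVF (4.09 ± 2.03, adjusted p = 0.278). Igkv8-30 had 11.26, 8.92, 10.27 and 16.73 in pCF, against 9.07, 6.62 and 5.27 in iVF (4.81 ± 1.93, adjusted p = 0.181). Igkv3-10 had 9.26, 10.39, 13.03 and 16.80 in pCF, against 8.05, 8.65 and 6.81 in iVF (4.53 ± 1.76, adjusted p = 0.168). In all 4 segments pCF 4 was the highest array, and none of the 4 passed the threshold.

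Of all signals 6.54% were called higher, and most families hold too few signals for a share to be compared with that. By family, the Igkv2 segments passed in 3 of 3 cases (median difference 2.07) and the Igkv6 segments in 4 of 6 (median 4.13). Igkv8 had 3 calls of 7 (1.53) and Igkv1 had 2 of 7 (1.89). Igkv5, Igkv13, Igkv14, Igkv16 and Igkv4 had 1 call each, of 5, 3, 3, 1 and 25 signals. The share in Igkv4 was 4%, below that of all signals. None of the 5 Igkv3 segments, the 4 Igkv12, the 3 Igkv9 or the 3 Igkv17 segments passed, with median differences of 3.90, 1.35, 1.47 and 3.27. Families Igkv7, Igkv10, Igkv15 and Igkv19 had 1 signal each, with differences of 0.63, 3.19, 3.71 and 4.09 that did not pass. The Igkv3 family differed by a median of 2.04 on the 5 lower-ceiling arrays and by 9.03 on the 2 higher-ceiling arrays. RefSeq lists 73 of the 79 V signals as V segments, with a median difference of 2.18 over the 73, of which 16 rose. It lists 6 as V segment pseudogenes, with a median of 0.64 over the 6, of which Igkv2-116 rose (0.97, adjusted p = 0.047). The call of Igkv2-116 held after 0 of the 7 single removals of an array (adjusted p = 0.0501 to 0.133).

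The Igkv4 family, the largest with 25 signals, varied with single arrays. It was set apart after its values had been seen, so the following is a description. The median over the 25 signals was 10.002, 11.06, 13.78 and 13.12 on pCF arrays 1 to 4, against 12.71, 11.95 and 6.26 on iVF arrays 1 to 3. All 25 were lowest of the 7 arrays on iVF 3, against 34 of the 54 other V signals and 22.7% of all signals. On pCF 1, 24 of the 25 were below iVF 1 and 21 below iVF 2. The range over the 3 iVF arrays had a median of 6.78 in the Igkv4 family, 1.11 in the other V signals and 0.84 in all signals. Within the family it ran from 0.66 in the dimmer Igkv4-58 to 9.99 in Igkv4-55, and outside it Igkv5-39 had 8.35 and Igkv5-48 6.435. The Igkv4 median was above that of the other V signals on every array. Whether the range goes with brightness was not tested.

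**Figure D3:**
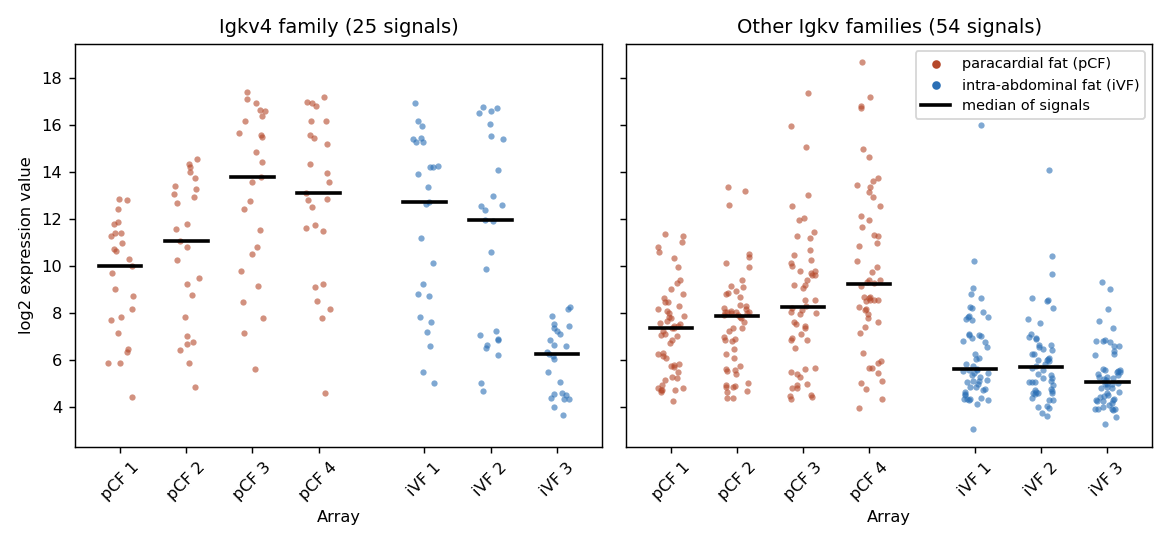
log2 values of the 25 Igkv4 signals (left panel) and the 54 other Igkv signals (right panel) on each array, with points for signals and black bars for their median. The Igkv4 median is 12.7 and 11.95 on iVF 1 and 2 but 6.26 on iVF 3, whereas the other families have medians of 7.34 to 9.21 on the pCF arrays and 5.06 to 5.69 on the iVF arrays.

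Values of single Igkv4 segments were as follows. Igkv4-55 had 11.26, 13.26, 16.16 and 15.55 in pCF, against 15.46, 16.03 and 6.04 in iVF (1.55 ± 2.61, adjusted p = 0.768). Igkv4-54 had 12.83, 14.54, 17.11 and 16.99 in pCF, against 16.18, 16.71 and 7.36 in iVF (1.95 ± 2.43, adjusted p = 0.681). Igkv4-59 had 12.84, 14.22, 17.39 and 17.17 in pCF, against 16.95, 16.51 and 7.88 in iVF (1.63 ± 2.42, adjusted p = 0.737). In each of them iVF 1 and 2 lay among or above the pCF arrays and iVF 3 far below all of them, and the direction turned without iVF 3. The family's median difference over all arrays was 1.70 and without iVF 3 it was -0.29, with -0.43 on the 5 lower-ceiling arrays and 7.26 on the 2 higher-ceiling arrays. On the 5 lower-ceiling arrays 16 of the 25 differences were below 0, and on the 2 higher-ceiling arrays none was.

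The other 54 V signals had a median difference of 2.47 over all arrays and 1.99 to 2.74 when an array was left out. It was 1.65 on the 5 lower-ceiling arrays and 4.04 on the 2 higher-ceiling arrays. This median moved less than that of Igkv4 after most removals. Without pCF 4 both moved alike, to 1.99 here and from 1.70 to 1.22 in Igkv4. The difference was positive within both sets in 47 of the 54, against 9 of the 25 Igkv4 signals. The medians of the 54 by array were 7.34, 7.86, 8.24 and 9.21 on pCF arrays 1 to 4, against 5.61, 5.69 and 5.06 on iVF arrays 1 to 3. These medians did not overlap between depots. In 32 of the 54 signals (59.3%) all pCF arrays lay above all iVF arrays, against 41.8% of all 79 V signals and 18.3% of all signals. The 54 were formed by taking out Igkv4 after its values had been seen. Their share and medians are therefore a description and no check.

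**Figure D4:**
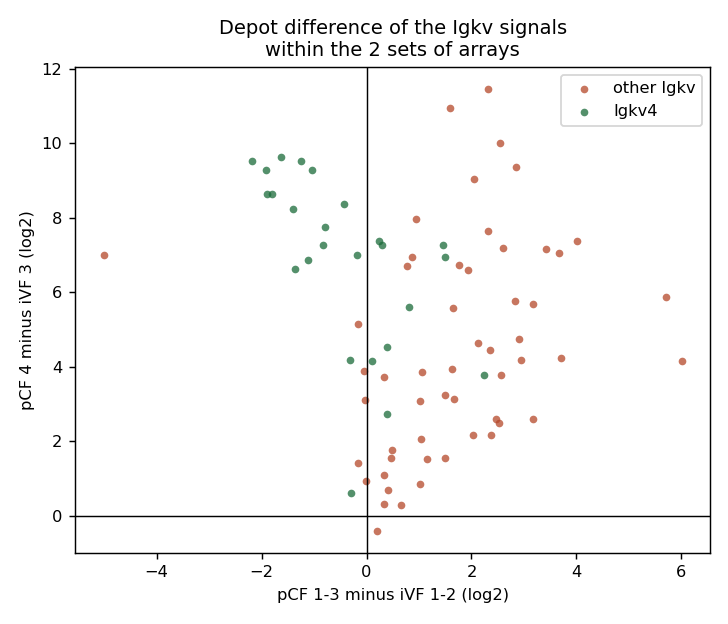
Difference of each Igkv signal on the 5 lower-ceiling arrays (pCF 1 to 3 minus iVF 1 and 2, horizontal axis, log2) and on the 2 higher-ceiling arrays (pCF 4 minus iVF 3, vertical axis, log2), with Igkv4 in green. Of the 25 Igkv4 signals 16 lie left of 0, and 47 of the 54 others lie above 0 on both axes.

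The smallest differences, and the only negative one, came from segments with low values or with the Igkv4 pattern. Igkv5-39 had 10.60, 8.33, 11.20 and 14.64 in pCF, against 15.99, 14.10 and 7.65 in iVF (-1.39 ± 2.26, adjusted p = 0.761), high on iVF 1 and 2 and low on iVF 3. Igkv4-92 (0.04), Igkv1-35 (0.06), Igkv14-130 (0.22), Igkv13-87 (0.29) and Igkv1-115 (0.32) did not pass, and their values lay between 3.94 and 6.29 on all arrays. When the 25% of signals with the lowest means were left out, 71 members stayed, all 18 called ones among them. Of these 71 members 22 were called higher, beside 661 of all 6831 signals that stayed.

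Lists of other B cell and plasma cell genes gave few or no calls. Of 13 measured genes of the B cell receptor and B cell identity none passed in either direction (1 higher and 0 lower at an unadjusted p under 0.05, limma), with a median difference of 0.47. The difference was positive in 12 of the 13 and negative in 1, and the list's medians by array were low, 4.96 to 6.56. In 38.5% of the 13 all pCF arrays lay above all iVF arrays, against 43.2% of the members and 18.3% of all signals. Ms4a1, the B cell surface protein CD20, had 5.30, 5.53, 7.45 and 7.35 in pCF, against 4.69, 5.37 and 4.70 in iVF (1.49 ± 0.63, adjusted p = 0.202). Cd79b, a signalling subunit of the B cell receptor, had 6.21, 6.21, 6.995 and 8.35 in pCF, against 5.73, 5.97 and 5.56 in iVF (1.19 ± 0.54, adjusted p = 0.236). In Cd79b the depots did not overlap, and in Ms4a1 iVF 2 exceeded pCF 1.

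Cd79a, the partner subunit of Cd79b, differed by 0.42 ± 0.27 (adjusted p = 0.404), and Spib, a transcription factor of B cells, by 0.58 ± 0.22 (adjusted p = 0.156). Of 8 plasma cell and secretion genes, measured out of 16 listed, none passed (1 higher and 0 lower at an unadjusted p under 0.05), with a median of 0.25. Some of them were low, with Derl3 between 5.07 and 5.69 and Mzb1 between 4.84 and 7.13, while Edem1 lay between 11.69 and 14.44. In 0 of the 8 all pCF arrays lay above all iVF arrays. Xbp1, which drives antibody secretion and is also expressed in other secretory cells, differed by -0.03 ± 0.55 (adjusted p = 0.985), and Edem1, which helps clear misfolded proteins from the endoplasmic reticulum, by 1.30 ± 0.55 (adjusted p = 0.199). Of 3 immunoglobulin receptor and transport genes none passed (0 in either direction at an unadjusted p under 0.05), with Fcgr3, an Fc receptor of myeloid and NK cells, at -0.87 ± 0.55 (adjusted p = 0.396). Prdm1, Sdc1 and Tnfrsf17 of the plasma cell list were among the genes not analysed here, as were Pax5, Vpreb1, Igll1, Rag1 and Pigr.

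Of 7 measured genes of B1 cells and fat-associated lymphoid clusters 1 rose, the lymphoid homing receptor Ccr7, a share of 14.3% over few genes beside 6.54% of all signals. It had 9.21, 8.80, 9.64 and 8.47 in pCF, against 8.03, 6.54 and 6.39 in iVF (2.04 ± 0.48, adjusted p = 0.046), and its depots did not overlap. The list's median difference was 1.40. Cxcl13, the B cell attracting chemokine, named after its values were seen, had 6.44, 6.51, 11.38 and 13.00 in pCF, against 6.53, 9.01 and 8.25 in iVF (1.40, adjusted p = 0.692). It was highest on pCF 3 and 4, and the depots overlapped.

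Heavy chain segments, the partner chains of the same antibodies, had a similar median difference with fewer calls. Of 110 heavy chain signals 3 rose (2.73%, below the 6.54% of all signals) and none fell (35 higher and 0 lower at an unadjusted p under 0.05). They had a median difference of 2.30, 0.98 on the 5 lower-ceiling arrays and 5.36 on the 2 higher-ceiling arrays. Their differences ran from -4.31 to 6.33, with 106 above 0 and 4 below. Among the 3 called signals the largest were Ighv1-82 (6.33 ± 1.15, adjusted p = 0.022) and Ighv1-4 (4.601 ± 1.07, adjusted p = 0.045). Whether the shares called differ between light and heavy chain signals was not tested.

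Markers of some other cell types also differed between the depots. The 6 thymocyte markers had medians of 11.84, 11.10, 12.78 and 13.97 on pCF arrays 1 to 4, against 9.98, 7.59 and 5.96 on iVF arrays 1 to 3. Of these markers 2 rose and none fell (5 higher and 1 lower at an unadjusted p under 0.05), beside 6.54% of all signals called higher. Among them Rag2, a subunit of the recombinase that joins light chain segments in B cells and receptor segments in T cells, had 9.71, 9.36, 11.04 and 11.55 in pCF, against 7.34, 5.36 and 4.59 in iVF (4.65 ± 0.81, adjusted p = 0.020). Dntt, which adds nucleotides at receptor joints, differed by 7.05 ± 1.48 (adjusted p = 0.033). Cd1d1, an antigen-presenting molecule of the same list, differed by -3.29 ± 0.83 (adjusted p = 0.055), with all pCF arrays lower. Rag2 and Dntt are expressed in developing T cells as well as developing B cells. Of 4 measured surrogate light chain and pro-B cell genes these were the 2 that rose, and Vpreb2, a surrogate light chain gene, differed by -0.03 (adjusted p = 0.968). The fourth, Erg, a transcription factor of blood progenitors and endothelium, had 4.96, 5.16, 5.31 and 5.45 in pCF, against 6.28, 6.52 and 8.39 in iVF. It differed by -1.85 ± 0.52 (adjusted p = 0.074), with every pCF array below every iVF array.

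For the counts that follow, 6.54% of all signals were called higher and 3.0% lower. Of 113 T cell receptor segments 24 rose (21.2%) and none fell, with a median difference of 1.49. Their largest called differences were in Tcrg-C3 (6.57) and Trbv20 (6.16). All pCF arrays lay above all iVF arrays in 69% of these segments, against 43.2% of the members and 18.3% of all signals. Of 5 T and NK cell markers 2 rose, Cd3d (4.09, adjusted p = 0.047) and Lat (4.03, 0.040). Of 7 thymic epithelial genes 5 rose, led by Krt18 (6.06) and Krt8 (5.08). Of 9 adipocyte markers 6 fell, among them Lep (-8.53) and Plin4 (-8.13), with a median difference of -7.19. Of 7 myeloid markers none passed (0 higher and 2 lower at an unadjusted p under 0.05), Itgam at -2.09 (adjusted p = 0.089), and of 4 lymph node stroma genes Lyve1 fell (-3.29, adjusted p = 0.033). The part of these markers in the light chain differences was not tested.

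**Figure D5:**
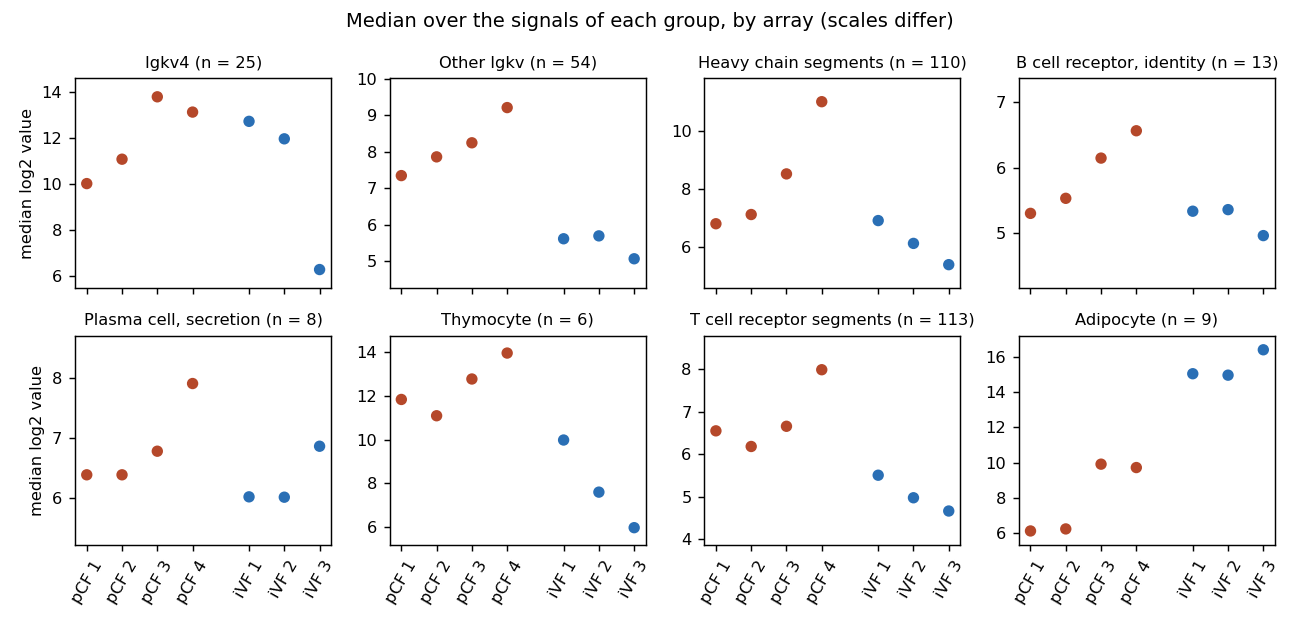
Median log2 value over the signals of 8 groups on each array, with paracardial arrays in red and intra-abdominal arrays in blue and a vertical scale of its own for each panel. The 54 other Igkv signals, the thymocyte markers and the T cell receptor segments have every pCF array above every iVF array, the adipocyte markers have every pCF array below, and the Igkv4 and heavy chain medians overlap between depots.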

How the data were processed

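Total RNA was measured on 7 arrays, and the deposited log2 value of each probe was used unchanged. The submitters' processing notes name RMA and Affymetrix Expression Console. Versions, genome build and the origin of the ceiling were not given in the sources used here. No scanner files were used, so how far a signal lies above background is not known. The precision is limited by the number of arrays.

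Of 11949 probes, 9352 had exactly 1 distinct symbol in the platform annotation, 522 several and 2075 none. Probes equal on all 7 arrays were merged, leaving 9109 signals, with no filter on low values. RefSeq (GRCm38.p6) gave names, segment types and order for all 81 members. Differences come from limma 3.58.1 in R 4.3.3 (lmFit, eBayes without trend, two-sided, no covariate, 5 residual degrees of freedom), with Benjamini-Hochberg adjustment over all signals. Python 3.11.15 did the rest. The test was checked on simulated data. The members, gene lists and alternatives were chosen with earlier results of these data known. Named members are all that are no V segment, the V segments with the 8 highest and 6 lowest differences, the 4 smallest p-values and the 3 widest ranges in each depot. Of each list, up to 2 called genes with the largest differences were named, or the gene with the smallest p where none passed, plus a few genes fixed by name. Alternatives changed the scaling, filter, variance model, weights, blocks, probe merging and arrays used.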

Additional observations from a re-analysis of the deposited data

Results flagged for a closer look

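A sample far from the others of its group was sought among the 4 paracardial arrays in 47 results, and 2 were found. Chance marks about 1 in 20 such groups. Igkj3 was 6.03 on pCF 1, below 6.95 to 7.04 on the other 3 arrays, with a gap of 0.916 of the group's range. Spib was 5.25 on pCF 4, above a value of 4.81 shared by pCF 1, 2 and 3, a gap of 1.0 of the range.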

How the results depend on the processing

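Same-numbered arrays correlated at 0.034, 0.058 and -0.525 in their deviations from the depot means, and other-numbered arrays at -0.115 to 0.499. These values cannot decide whether the replicate numbers pair the samples, because deviations from a shared mean depend on each other. The labels do not say either. With the replicate number as a block, 0 light chain signals and 104 signals in all were called, against 18 and 869 without it. Array weights, whose estimation stopped before converging, gave 32 higher and 1 lower light chain signals, 3812 signals in all, an Igkv median of 0.89 and a Jchain difference of 1.39. Quantile normalization applied again gave 2.16 for Jchain. The array set as a block gave 1732 signals in all. Without pCF arrays 1 and 2, 0 light chain signals and 1 signal in all passed, and the Igkv median was 3.39. The 5 arrays of the lower ceiling gave 7 light chain signals and 954 signals in all. Leaving out each array gave 3 to 13 light chain signals and 182 to 830 signals in all. The Igkv4 median turned negative with array weights (-0.61), within the 5 arrays (-0.43) and without iVF 3 (-0.29 to 3.02 over the arrays left out). Igkv4-54 (-2.46, -1.62, and -1.08 to 3.59), Igkv4-55 (-3.16, -2.19, and -1.69 to 3.31) and Igkv4-59 (-2.42, -1.91, and -1.32 to 3.21) turned too, given here with array weights, on the 5 arrays and over the arrays left out. Of segments near 0, Igkv1-35 gave -0.097 with centred arrays, -0.229 without pCF 1 and 2, and -0.054 to 0.236 when an array was left out. Igkv13-87 gave -0.169 on the 5 arrays. Igkv14-130 gave -0.017 with the replicate block, -0.012 on the 5 arrays and -0.017 to 0.36 when an array was left out. Igkv4-92 gave -0.069 with quantile normalization, -0.119 centred, -0.354 with array weights, -0.027 with the array set as a block, -0.297 on the 5 arrays and -0.383 to 0.364 when an array was left out. Igkv5-39 gave 0.342 without pCF 1 and 2 and -3.852 to 0.321 when an array was left out. The causes were not tested. The median of the other Igkv signals was positive under all 21 alternatives (1.602 to 3.14). That group was formed by taking out Igkv4 after its values had been seen, so this is a description and no check. No signal carried Igkc or a lambda symbol alone, so the results planned for them were not run.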

Other observations

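Probes annotated to several symbols, at least 1 of them a light chain symbol, were left out of the members. There were 14, of which 2 were higher and 0 lower in a fit over all 11949 probes (limma, adjusted p under 0.05), with a median difference of 2.37. One of them carries Igkc, the kappa constant exon, together with kappa V and J symbols. It had 9.06, 9.31, 10.85 and 11.71 on pCF arrays 1 to 4, against 8.56, 8.59 and 6.97 on iVF arrays 1 to 3 (2.20 ± 0.77, adjusted p = 0.146). Another joins the V, J and constant symbols of the lambda locus. It had 6.70, 7.15, 9.41 and 9.51 in pCF, against 6.30, 5.40 and 5.26 in iVF (2.54 ± 0.81, adjusted p = 0.117). On both probes every pCF array lay above every iVF array.

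Over the 7 arrays, the signals most like Jchain were Igkv10-95 (Pearson's r = 0.985), Il1a (0.984), Socs1 (0.984), Emb (0.980) and Adamts6 (0.979). Those most like the median of the Igkv signals were Socs1 (0.993), Adamts6 (0.991), Igkv17-127 (0.990), Fcrla (0.987) and Tdrd5 (0.987), and Jchain itself had 0.983. All share the same 7 arrays and the difference between depots, so these values only describe.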
